A study of Mus musculus with 65 samples.

Results

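Oligodendrocyte precursors and the newly formed oligodendrocytes that arise from them were followed through 10 genes chosen by name: Pdgfra, Cspg4, Vcan, Gpr17, Bmp4, Tnr, Neu4, Enpp6, Lhfpl3 and Sox6. Each was found once among the 49670 gene IDs of the count table, and all 10 passed the filter on low counts in every comparison. RNA was sequenced in 65 libraries of mouse hindbrain on the C57BL/6J strain, from wild type mice and from Atxn1[82Q] knockin mice, in which the gene for ataxin 1 carries an expanded repeat, the change that causes spinocerebellar ataxia type 1 (SCA1) in people. Wild type mice received vehicle, and knockin mice received either vehicle or an antisense oligonucleotide (ASO) that targets the Atxn1 transcript. At 18 weeks each group held 4 cerebellum, 3 medulla and 3 pons libraries. At 28 weeks each group held 4 pons libraries, and the medulla was covered by 8 libraries of wild type, 8 of vehicle knockin and 7 of ASO knockin mice, which the labels split into batch 1 (4, 4 and 4) and batch 2 (4, 4 and 3). The sources used here do not give the dose, route or start of treatment, the zygosity of the knockin or the sex of the mice, and wild type mice given the ASO were not analysed here. The labels do not say that each library came from its own mouse, so p-values measure the spread between libraries.

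Oligodendrocyte precursors are the dividing glial cells from which the myelinating cells of the brain arise, and they persist in the adult brain. Pdgfra encodes the receptor for platelet-derived growth factor A, which drives their division and survival, and Cspg4 encodes the NG2 proteoglycan on their surface. As precursors commit to differentiate they switch on Gpr17, a receptor that has to be lost again before a cell myelinates, and then Enpp6, a choline phosphodiesterase that marks the newly formed oligodendrocyte. The 10 genes are not equally specific: Pdgfra and Vcan are also made by fibroblasts, Cspg4 by pericytes, and Tnr by some neurons.

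In vehicle knockin medulla at 28 weeks Pdgfra was called lower and Enpp6 higher than in wild type. They mark the beginning and the end of the precursor stage. Neither call was stable: leaving out any of 13 libraries ended that of Pdgfra, and any of 9 that of Enpp6. The 250 bases before their start sites are shown because the directions were opposite. Both are RefSeq promoter windows on GRCm38.p6, plus strand, written 5′ to 3′, at chr5:75152001-75152250 for Pdgfra and chr8:46986637-46986886 for Enpp6. Capitals mark a match to a Sox motif.
Pdgfra: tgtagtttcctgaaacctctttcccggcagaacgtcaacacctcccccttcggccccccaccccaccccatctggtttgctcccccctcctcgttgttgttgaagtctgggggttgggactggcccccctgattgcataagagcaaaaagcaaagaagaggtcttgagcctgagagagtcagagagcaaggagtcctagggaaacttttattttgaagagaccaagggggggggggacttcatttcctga
Enpp6: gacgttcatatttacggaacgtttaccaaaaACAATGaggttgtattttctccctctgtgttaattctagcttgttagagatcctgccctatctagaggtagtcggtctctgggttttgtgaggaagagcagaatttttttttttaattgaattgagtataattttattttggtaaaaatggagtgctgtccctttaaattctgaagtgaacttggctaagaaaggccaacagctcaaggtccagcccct

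The Pdgfra window had a GC content of 54.4% and the Enpp6 window one of 38.4%, against a median of 52.4% over 32851 windows of the same length. On both strands, the search covered the Sox motifs ACAAAG and ACAATG, the E-box CAGCTG, the GC box GGGCGG, and the octamers of Capicua, the repressor that binds ataxin 1 (TGAATGAA, TGAATGGA, TCAATGAA and TCAATGGA). The Enpp6 window held 1 Sox motif and the Pdgfra window none of the motifs. Across all windows, 25.2% held a Sox motif, 13.0% the E-box, 32.7% the GC box and 3.19% a Capicua octamer. A match is a description of the letters in the window and not a measured site.

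The genes lie on 8 chromosomes of the GRCm38 assembly, and their full extents follow. Pdgfra (ENSMUSG00000029231) lies on chromosome 5 from 75152292 to 75198215, and Lhfpl3 on the same chromosome from 22746059 to 23275597. Gpr17 (ENSMUSG00000052229) lies on chromosome 18 from 31942997 to 31949636, Enpp6 (ENSMUSG00000038173) on chromosome 8 from 46986887 to 47096762, and Cspg4 (ENSMUSG00000032911) on chromosome 9 from 56865033 to 56899870. Tnr and Neu4 are both on chromosome 1, from 159523769 to 159931729 and from 94020451 to 94028334. Vcan is on chromosome 13 from 89655312 to 89742509, Bmp4 on chromosome 14 from 46383520 to 46390669, and Sox6 on chromosome 7 from 115470872 to 116038796. Exons of Gpr17 share 188 of 5195 bases with Lims2 on the opposite strand, which had a median of 12.4 CPM, and exons of Lhfpl3 share 567 of 3213 bases with A930003O13Rik, which had a median of 1.79 CPM. The sources used here do not say whether counting used the strand, so reads of these overlaps could belong to either gene.

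Libraries held from 49.2 to 119.1 M counts, with a median of 77.0 M. Counts of the 10 genes ran from 59 for Bmp4 to 17812 for Tnr, and those of Pdgfra from 2143 to 5950. Levels are given in CPM, the count of a gene relative to the TMM-adjusted total of its library, and differences as edgeR's log2 ratios with their standard errors (SE). A gene is called at a Benjamini-Hochberg adjusted p under 0.05 over all genes tested. Atxn1 averaged 34.8 CPM in wild type, 44.4 CPM in vehicle knockin and 33.0 CPM in ASO knockin medulla at 28 weeks. In medulla and pons at both ages the library labelled ASO replicate 2 had 39 to 51 CPM of Atxn1, which goes against its label, and at 18 weeks the library labelled wild type replicate 3 was low, with 15.3 CPM in the first tissue and 16.5 CPM in the second. In medulla at 28 weeks 4 libraries of batch 2 (wild type 5, vehicle knockin 8 and ASO knockin 6 and 7) were low in Hox genes that mark the caudal hindbrain. In cerebellum the library labelled ASO replicate 4 had 50.3 CPM of Atxn1, within the wild type range of 46.0 to 57.0 CPM. The cerebellum library labelled ASO replicate 3 stood apart in several of the 10 genes. Fewer cells of a type and less RNA per cell cannot be told apart in these bulk samples.

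In wild type mice 7 of the 10 genes were lower in cerebellum than in medulla, Bmp4 was higher there, and Vcan and Tnr were not called. Within each tissue the 10 genes covered a wide range of levels. Per kilobase of exon, the order in wild type medulla at 18 weeks was led by Lhfpl3, a tetraspan-like membrane protein, at 23.2 ± 4.66 CPM per kb (SD, n = 3). Tnr, the extracellular matrix protein tenascin R, followed at 10.2 ± 1.72 CPM per kb. Enpp6 at 7.26 ± 0.68, Gpr17 at 6.47 ± 0.542 and Pdgfra at 6.11 ± 0.406 CPM per kb came next, and neighbours among these 3 did not differ beyond their spread. Neu4, a sialidase, at 2.84 ± 0.156 and Vcan, the proteoglycan versican, at 2.79 ± 0.561 CPM per kb were level with each other. The lowest were Cspg4 at 1.36 ± 0.267, the transcription factor Sox6 at 1.30 ± 0.123 and the secreted factor Bmp4 at 1.03 ± 0.605 CPM per kb, which overlapped in their spread. In wild type cerebellum Lhfpl3 and Tnr again led with 12.8 ± 0.702 and 8.88 ± 0.908 CPM per kb (SD, n = 4), while Bmp4 at 2.43 ± 0.331 stood level with Enpp6 at 2.43 ± 0.139.

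**Figure D1:**
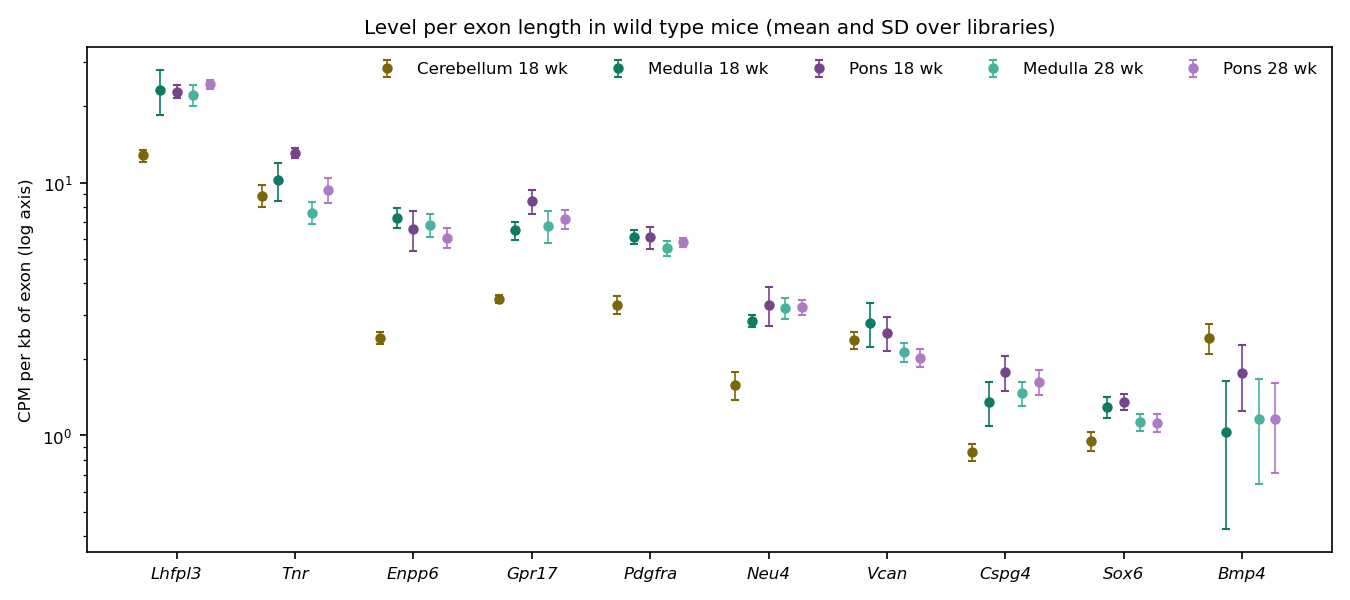
Wild type levels of the 10 genes (x axis) in CPM per kb of exon on a log axis, as means with SD over libraries for each tissue and age. Cerebellum is the lowest group for Lhfpl3, Enpp6, Gpr17, Pdgfra, Neu4, Cspg4 and Sox6 and the highest for Bmp4.

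Enpp6 showed the widest regional difference. Its wild type levels were 15.6, 16.8, 15.0 and 14.8 CPM in cerebellum, 50.3, 47.6 and 41.8 CPM in medulla at 18 weeks, while pons had 33.3, 45.4 and 47.0 CPM. Cerebellum overlapped with neither of the other tissues, and its level was 3.05-fold lower than that of medulla (log2 -1.61, SE 0.12, adjusted p = 2e-07) and 2.75-fold lower than that of pons (log2 -1.46, SE 0.12, adjusted p = 5.7e-07). Gpr17 stood at 18.1, 17.2, 18.7 and 18.1 CPM in cerebellum against 31.3, 32.8 and 36.8 CPM in medulla, while pons had 38.8, 48.3 and 44.5 CPM, again without overlap of cerebellum with either. It was 1.90-fold lower in cerebellum than in medulla (adjusted p = 2.6e-06) and 2.49-fold lower than in pons (adjusted p = 1.7e-07). Pdgfra was 1.89-fold lower in cerebellum than in medulla (33.0 ± 2.67 against 61.2 ± 4.07 CPM, adjusted p = 3.1e-06) and by the same factor lower than in pons.

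Between cerebellum and medulla 8 of the 10 genes were called, with 7 lower in cerebellum and Bmp4 higher there, against 59.2% of all genes tested in either direction and 30% lower in cerebellum. Lhfpl3, Neu4, Cspg4 and Sox6 were the other genes lower in cerebellum, by log2 -0.89, -0.87, -0.70 and -0.48. Bmp4, whose product holds precursors back from differentiating, was 2.33-fold higher in cerebellum than in medulla (5.47 ± 0.743 against 2.32 ± 1.36 CPM, adjusted p = 0.011). Tnr (log2 -0.22, adjusted p = 0.093) and Vcan (log2 -0.26, adjusted p = 0.13) were not called, but both were called without medulla replicate 1 (log2 -0.31 and -0.41). Between cerebellum and pons 8 of the 10 genes were called, all lower in cerebellum, against 56.1% of all genes in either direction and 28.4% lower, and Bmp4 (log2 0.44, adjusted p = 0.29) and Vcan (log2 -0.13, adjusted p = 0.43) were not. The median log2 difference over the 10 genes was -0.78 against medulla and -0.89 against pons, beside -0.01 and 0 over all genes. Of 23 genes of mature oligodendrocytes and myelin, 22 were lower in cerebellum than in medulla and 22 lower than in pons, with medians of -1.12 and -1.14.

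Between medulla and pons of wild type mice at 18 weeks, edgeR's quasi-likelihood test called 0 of the 10 genes, against 0.833% of all genes. An unadjusted p under 0.05 was reached by 3 of the 10, beside 2879 of all 20176 genes tested. DESeq2 called 1 of the 10, beside 760 of all genes. Gpr17 was the lowest in p, with log2 -0.39 in medulla relative to pons (adjusted p = 0.10), and leaving out pons replicate 1 brought it to log2 -0.47 and an adjusted p of 0.028. Tnr (log2 -0.37, adjusted p = 0.18) was called without medulla replicate 2 (log2 -0.51, adjusted p = 0.038). At 28 weeks Tnr was the 1 gene called, 1.24-fold lower in medulla than in pons (97.6 ± 9.81, n = 8, against 120.3 ± 13.6 CPM, n = 4, log2 -0.31, SE 0.08, edgeR adjusted p = 0.028), against 10.9% of all genes. That call was lost on leaving out pons replicate 1, 3 or 4 (adjusted p 0.067 to 0.12). The number at the end of the column header, which may mark a mouse, was used as a block in batch 1 of medulla and pons. With it 4 of the 10 were called, Tnr, Pdgfra, Gpr17 and Lhfpl3. That fit called 3119 of all genes, beside 2215 without the block in both batches. Without the block and without wild type medulla replicate 5, which was low in Hox genes, 2 genes were called beside Tnr. They were Lhfpl3 (log2 -0.20, adjusted p = 0.018) and Pdgfra (log2 -0.12, adjusted p = 0.039). That fit called 3487 of all genes.

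In medulla at 28 weeks the knockin had less Gpr17 than wild type, by 33.7%, and smaller amounts separated 3 other lower genes and Enpp6, which was higher. Of the 10 genes, 5 were called in vehicle knockin against wild type: Gpr17, Cspg4, Pdgfra and Neu4 lower and Enpp6 higher. Over all genes 19.3% were called, 9.99% lower and 9.28% higher. The median log2 difference of the 10 genes was -0.07 beside 0.01 for all genes.

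Gpr17 ranged from 28.5 to 44.2 CPM in the 8 wild type libraries, with a median of 34.0 CPM, and from 14.9 to 27.5 CPM in the 8 vehicle knockin libraries, with a median of 24.6 CPM. Every vehicle knockin library lay below every wild type library. The level fell by 33.7%, a 1.51-fold difference (log2 -0.59, SE 0.09, adjusted p = 6.9e-05), and the exact permutation test within batches gave p = 0.00041. Gpr17 was called in all 33 alternative settings tried for this comparison, with log2 differences from -0.64 to -0.53.

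Cspg4 ranged from 14.7 to 20.5 CPM in wild type (median 17.0) and from 12.2 to 16.9 CPM in vehicle knockin (median 14.9), and the groups overlapped. It fell 1.19-fold (log2 -0.25, SE 0.07, adjusted p = 0.011, exact permutation p = 0.0037). Pdgfra ranged from 52.4 to 63.5 CPM in wild type (median 54.3) and from 42.5 to 60.7 CPM in vehicle knockin (mean 49.5). The highest knockin library was replicate 8 and the highest wild type library replicate 5, both among the 4 low in Hox genes, and each of the other 7 vehicle knockin libraries lay below each wild type library. The 1.11-fold fall of Pdgfra (log2 -0.15, SE 0.05, adjusted p = 0.037, exact permutation p = 0.016) was called also without those 4 libraries (log2 -0.17, adjusted p = 0.015), but was lost in 20 of 33 settings. The call ended with no batch term (adjusted p = 0.11), with only the 2 groups compared (adjusted p = 0.068), with a block on the replicate number (adjusted p = 0.066), and on leaving out any 1 of 13 libraries: ASO knockin 2 or 5, vehicle knockin 1, 3, 4, 5, 6 or 7, or wild type 1 to 5 (adjusted p 0.05 to 0.081).

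Neu4, which trims sialic acids from glycans, ranged from 13.1 to 17.4 CPM in wild type (median 14.5) and from 11.3 to 14.5 CPM in vehicle knockin (median 12.9). It fell 1.13-fold (log2 -0.17, SE 0.06, adjusted p = 0.049, exact permutation p = 0.0098), just inside the threshold. The call was lost without the 4 libraries low in Hox genes (log2 -0.13, adjusted p = 0.18) and on leaving out any 1 of 16 libraries: ASO knockin 1, 2, 5 or 7, vehicle knockin 1, 4, 5, 6, 7 or 8, or wild type 1, 2, 3, 5, 7 or 8 (adjusted p 0.052 to 0.10). Enpp6 went the other way: it ranged from 38.3 to 53.0 CPM in wild type (median 42.3) and from 38.3 to 60.5 CPM in vehicle knockin (median 54.7). The rise was 1.16-fold (log2 0.21, SE 0.07, adjusted p = 0.035, exact permutation p = 0.036). It was lost without the 4 libraries low in Hox genes (log2 0.17, adjusted p = 0.13) and on leaving out any 1 of 9 libraries, vehicle knockin 3, 5, 6, 7 or 8 or wild type 2, 5, 6 or 7 (adjusted p 0.058 to 0.078).

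The 5 genes not called in that comparison were Vcan (log2 -0.03, adjusted p = 0.83), Bmp4 (0.39, 0.55), Tnr (0.08, 0.58), Lhfpl3 (-0.11, 0.33) and Sox6 (0.01, 0.95). Bmp4 had the widest spread, from 1.21 to 4.33 CPM in wild type and from 1.26 to 6.80 CPM in vehicle knockin. Lhfpl3 ranged from 64.0 to 83.0 CPM in wild type and from 49.5 to 76.3 CPM in vehicle knockin.

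**Figure D2:**
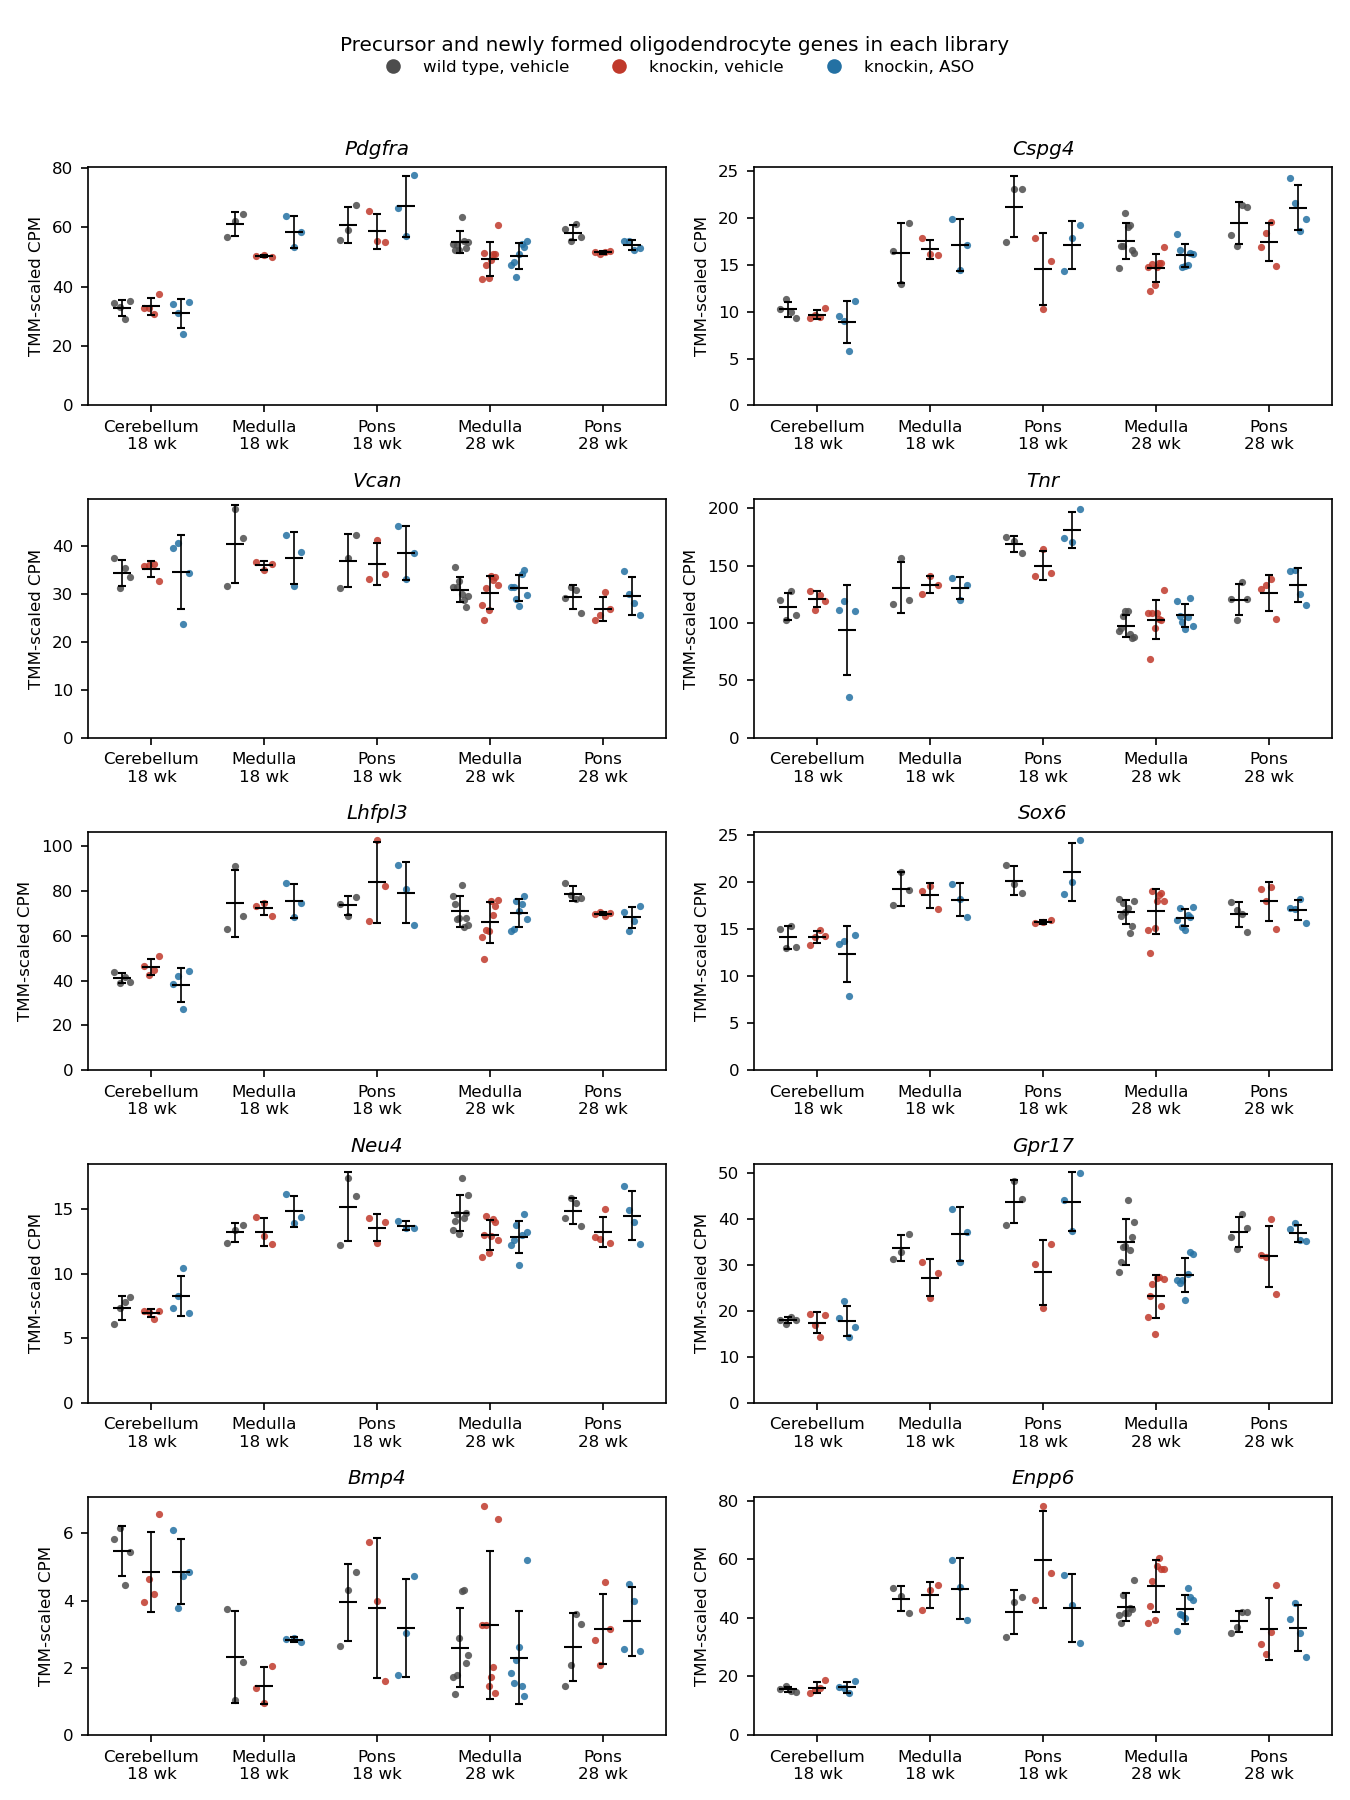
Level of each of the 10 genes in every library, in TMM-scaled CPM, by tissue, age and group, with 1 point per library and bars for the mean and SD. In medulla at 28 weeks the vehicle knockin points of Gpr17 lie between 14.9 and 27.5 CPM, all below the wild type points.

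In the 28-week medulla Gpr17 was lower in both batches, while the higher Enpp6 stood in batch 2. In batch 1 Gpr17 averaged 31.8 CPM in wild type and 20.7 CPM in vehicle knockin (log2 -0.61, adjusted p = 0.035), and in batch 2 it averaged 38.2 and 25.6 CPM (log2 -0.57, adjusted p = 0.0039). Enpp6 in batch 1 stood at 41.1, 38.3, 47.9 and 41.7 CPM in wild type and at 38.3, 44.2, 52.6 and 39.4 CPM in vehicle knockin (log2 0.05, adjusted p = 0.82). In batch 2 it stood at 41.5, 43.3, 42.9 and 53.0 CPM in wild type and at 57.8, 60.5, 56.8 and 56.8 CPM in vehicle knockin, without overlap (log2 0.36, adjusted p = 0.0039). The rise of Enpp6 was thus called in batch 2 and not in batch 1, and the difference between the batches was not tested.

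Cspg4 was lower in both batches (log2 -0.33 and -0.19), and so were Pdgfra (-0.21 and -0.10) and Neu4 (-0.13 and -0.22), with none of them called in either batch alone. Vcan changed sign: its log2 difference was -0.25 in batch 1 (adjusted p = 0.10) and 0.20 in batch 2 (adjusted p = 0.026). Lhfpl3 (-0.29 and 0.08), Sox6 (-0.16 and 0.18), Tnr (-0.08 and 0.24) and Bmp4 (0.96 and -0.19) also had opposite signs in the batches, none of them called.

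**Figure D3:**
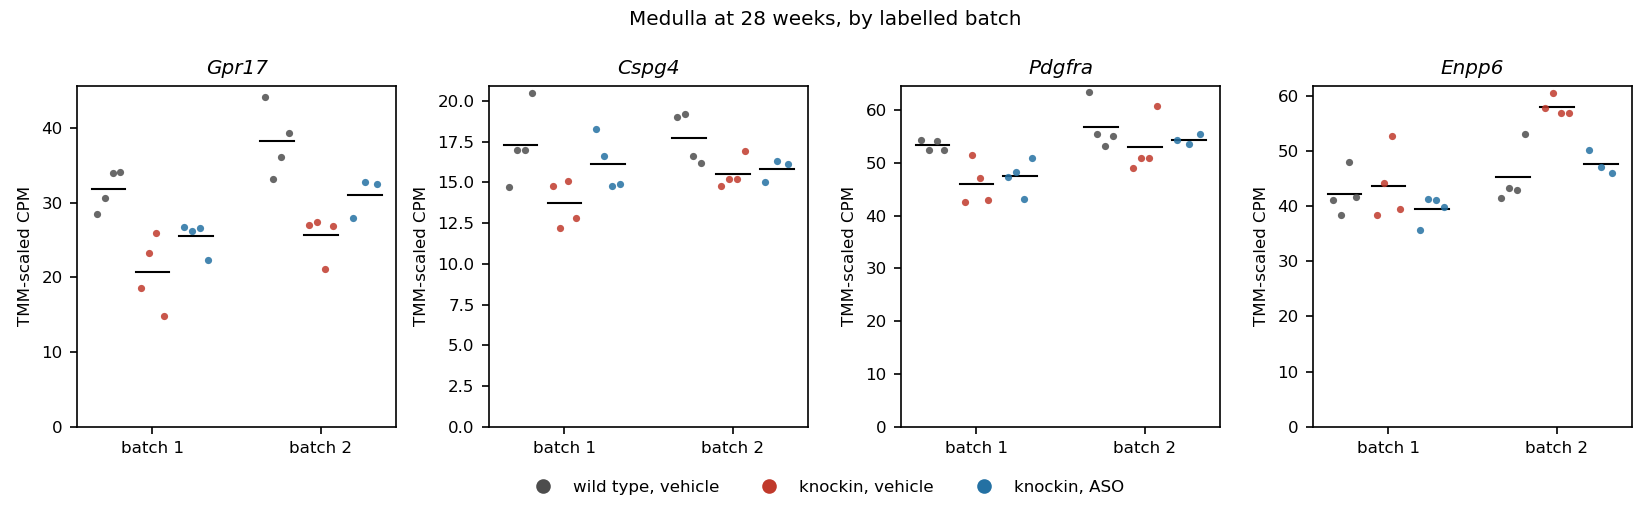
Levels of Gpr17, Cspg4, Pdgfra and Enpp6 in medulla at 28 weeks by labelled batch, in TMM-scaled CPM, with 1 point per library and a line at each mean. Mean Gpr17 is lower in vehicle knockin than in wild type in both batches (20.7 against 31.8 and 25.6 against 38.2 CPM), while Enpp6 is higher without overlap in batch 2 (58.0 against 45.2 CPM).

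In ASO knockin medulla at 28 weeks the mean levels of Gpr17 (27.9 ± 3.68 CPM) and Enpp6 (43.0 ± 4.95 CPM) lay closer to wild type than those of vehicle knockin did, but none of the 10 genes was called against vehicle knockin by edgeR or DESeq2. The comparisons of vehicle knockin with wild type and of ASO knockin with vehicle knockin share the vehicle knockin libraries, so their values are given side by side and not as independent evidence. Gpr17 ranged from 22.3 to 32.8 CPM in the 7 ASO knockin libraries (median 26.8), overlapping with both other groups. Its log2 difference was -0.59 for vehicle knockin against wild type, 0.29 (SE 0.09) for ASO against vehicle knockin and -0.31 (SE 0.09) for ASO knockin against wild type. The second had an adjusted p of 0.14 (exact permutation p = 0.011) and the third one of 0.062 (exact permutation p = 0.00082), so neither was called. Without vehicle knockin replicate 2 or 4 the third was called (adjusted p 0.026 to 0.05).

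Enpp6 ranged from 35.6 to 50.1 CPM with ASO (median 41.3), and its difference from vehicle knockin was log2 -0.22 (SE 0.07, adjusted p = 0.14). It stood at log2 -0.01 from wild type (adjusted p = 0.96). Pdgfra ranged from 43.2 to 55.4 CPM with ASO (median 50.9), at log2 0.03 from vehicle knockin and -0.12 from wild type (adjusted p = 0.88 and 0.22). Neu4 with ASO had a median of 13.0 CPM, at log2 -0.01 from vehicle knockin and -0.18 from wild type (adjusted p = 0.98 and 0.10). Cspg4 had a median of 16.1 CPM, at log2 0.13 from vehicle knockin and -0.12 from wild type (adjusted p = 0.49 and 0.35).

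For ASO against vehicle knockin in this tissue edgeR called 0 of the 10 genes, against 1.69% of all genes. An unadjusted p under 0.05 was reached by 2 of the 10, beside 2473 of all 20465 genes. DESeq2 called 0 of the 10, beside 610 of all genes. For ASO knockin against wild type edgeR called 0 of 10, against 3.8% of all genes. There 3 of the 10 reached an unadjusted p under 0.05, beside 4029 of all genes. DESeq2 called 1 of the 10, Gpr17, beside 1360 of all genes. A difference that misses the threshold does not show that treated and wild type levels were equal.

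In pons at 28 weeks Pdgfra and Lhfpl3 were lower in vehicle knockin than in wild type, both by 1.13-fold. Of the 10 genes these 2 were called, both lower, against 9.79% of all genes, with 5.65% lower and 4.14% higher. Pdgfra stood at 59.6, 55.5, 61.0 and 56.8 CPM in wild type, at 51.8, 50.9, 51.8 and 51.9 CPM in vehicle knockin and at 55.3, 55.6, 52.4 and 53.0 CPM in ASO knockin. The 4 vehicle knockin libraries lay below all of the others. The fall was log2 -0.17 (SE 0.04, adjusted p = 0.015), and the exact permutation test gave p = 0.029, the smallest that 4 against 4 allows. It was lost only without vehicle knockin replicate 2 among the settings tried (adjusted p = 0.054).

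Lhfpl3 stood at 83.6, 78.4, 76.4 and 76.9 CPM in wild type, at 70.0, 70.8, 69.1 and 70.2 CPM in vehicle knockin and at 70.8, 62.4, 66.5 and 73.4 CPM in ASO knockin. Both knockin groups lay below wild type without overlap and overlapped with each other. The fall in vehicle knockin was log2 -0.17 (SE 0.05, adjusted p = 0.039, exact permutation p = 0.029), and with ASO the difference from wild type was log2 -0.21 (adjusted p = 0.055). The call in vehicle knockin was lost with the replicate block (adjusted p = 0.054) and on leaving out any 1 of 7 libraries: ASO knockin 3, vehicle knockin 1, 2 or 3, or wild type 1, 2 or 4 (adjusted p 0.051 to 0.10). The difference with ASO was called without ASO knockin 4 or vehicle knockin 4 (adjusted p 0.027 to 0.038).

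Gpr17 in pons at 28 weeks stood at 36.1, 33.5, 41.2 and 38.1 CPM in wild type, at 32.3, 31.7, 40.1 and 23.8 CPM in vehicle knockin and at 37.9, 39.1, 35.4 and 35.3 CPM in ASO knockin. The vehicle knockin group held both the lowest value and 1 of the highest, and its difference from wild type was log2 -0.22 (SE 0.12, adjusted p = 0.29). Of the remaining genes none was called by edgeR for vehicle knockin against wild type. Their differences in mean log2 CPM were -0.16 for Cspg4, -0.13 for Vcan, 0.25 for Bmp4 and 0.07 for Tnr. Those of Neu4, Enpp6 and Sox6 were -0.16, -0.13 and 0.11. Cspg4 stood at log2 0.28 for ASO against vehicle knockin (SE 0.10, edgeR adjusted p = 0.24). For that contrast edgeR called 0 of the 10 genes, against 0.0929% of all genes. An unadjusted p under 0.05 was reached by 1 of the 10, beside 2993 of all 20458 genes. DESeq2 called 0 of the 10, beside 603 of all genes. For ASO knockin against wild type edgeR called 0 of 10, against 1.07% of all genes. There 2 of the 10 reached an unadjusted p under 0.05, beside 3733 of all genes. DESeq2 called 1 of the 10, Lhfpl3, beside 1020 of all genes.

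**Figure D4:**
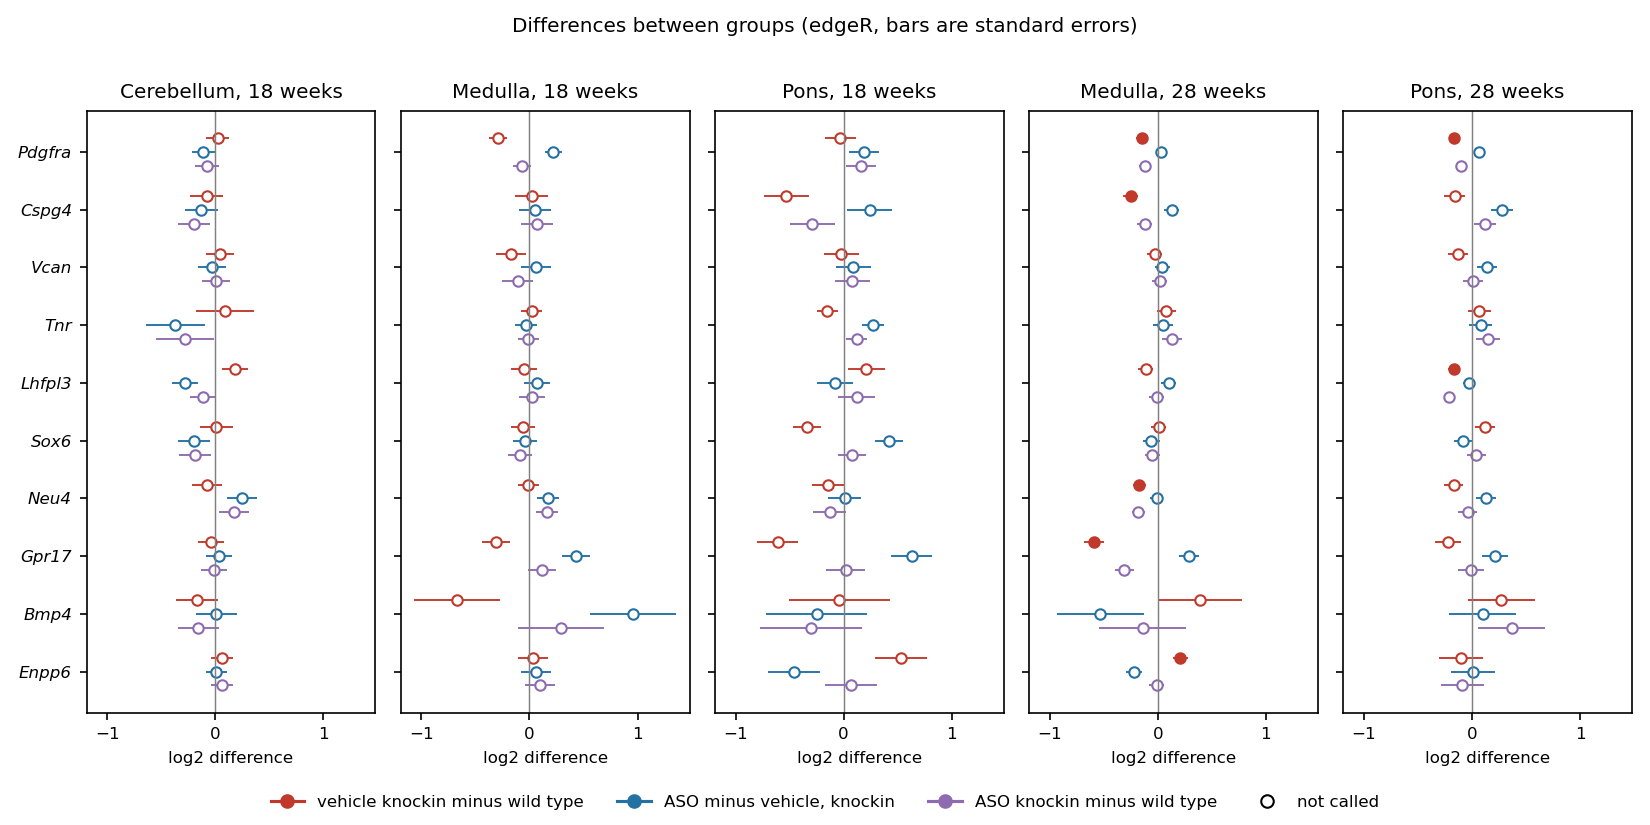
Log2 differences of the 10 genes between groups in each tissue and age, with standard errors, for the 3 comparisons of groups; filled points are called and open points are not. The filled points are 5 in medulla and 2 in pons at 28 weeks, all in vehicle knockin against wild type.

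Whether medulla and pons differed in their response was tested as an interaction at 28 weeks. For vehicle knockin against wild type, Gpr17 had a log2 difference of -0.36 between medulla and pons (SE 0.16, edgeR adjusted p = 0.56), and Enpp6 one of 0.32 (SE 0.18, adjusted p = 0.69). EdgeR called 0 of the 10 genes, against 0.0184% of all genes. An unadjusted p under 0.05 was reached by 1 of the 10, beside 1753 of all 21718 genes. DESeq2 called 0 of the 10, beside 17 of all genes. For ASO against vehicle knockin edgeR called 0 of 10, against 0% of all genes. There 0 of the 10 reached an unadjusted p under 0.05, beside 884 of all genes. DESeq2 called 0 of the 10, beside 1 of all genes. The lower Gpr17 and higher Enpp6 of the medulla are therefore not shown to be particular to that tissue. Numbers at the end of the count table's column headers recur between medulla and pons (15 in these 2 tissues alone and 6 in all 3), so libraries of different tissues may share a mouse. With the header number as a block, in batch 1 of medulla and pons, 0 of the 10 were called as well.

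At 18 weeks Gpr17 stood lower in vehicle knockin in both brainstem tissues, without a call in either. The medulla and pons libraries of that age carry the same header numbers. They may therefore come from the same mice and are not taken as independent, and the ages were not compared by a test. In medulla it was at 31.3, 32.8 and 36.8 CPM in wild type, at 30.6, 22.8 and 28.3 CPM in vehicle knockin and at 42.3, 30.6 and 37.3 CPM in ASO knockin. In pons it was at 38.8, 48.3 and 44.5 CPM in wild type, at 30.2, 20.6 and 34.5 CPM in vehicle knockin and at 44.1, 37.4 and 50.1 CPM in ASO knockin. In both tissues each vehicle knockin library lay below each wild type library, and wild type and ASO knockin overlapped. The log2 differences from wild type were -0.31 (SE 0.13) in medulla and -0.61 (SE 0.19) in pons, with edgeR adjusted p of 0.85 and 0.41. With ASO the differences from vehicle knockin were log2 0.43 and 0.63, with edgeR adjusted p of 1 and 0.75. The exact permutation test gave p = 0.10 for each of the 4, the smallest that 3 against 3 allows.

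Pdgfra in medulla at 18 weeks stood at 56.7, 62.3 and 64.6 CPM in wild type, at 50.4, 50.7 and 50.2 CPM in vehicle knockin and at 64.0, 53.3 and 58.4 CPM in ASO knockin. The vehicle knockin libraries lay below both other groups (log2 -0.29 from wild type, SE 0.08, edgeR adjusted p = 0.83). In pons of that age Pdgfra overlapped between the groups (log2 -0.03), while Sox6, which keeps precursors undifferentiated, stood at 21.8, 19.8 and 18.8 CPM in wild type, at 15.6, 15.7 and 16.0 CPM in vehicle knockin and from 18.7 to 24.5 CPM in the 3 ASO knockin libraries. Vehicle knockin lay below both other groups (log2 -0.34 from wild type, SE 0.13, edgeR adjusted p = 0.41). In medulla Sox6 overlapped between the groups. For Pdgfra in medulla and Sox6 in pons the exact permutation test gave p = 0.1 for vehicle knockin against each other group. That is the smallest p that 3 against 3 allows. Groups of that age also separated for Bmp4 in medulla and Tnr in pons. There ASO knockin lay above vehicle knockin, with differences in mean log2 CPM of 0.8 and 0.27. In medulla Neu4 with ASO lay above wild type (0.16). How many of all genes separate between groups was not counted. Enpp6 in pons stood at 33.3, 45.4 and 47.0 CPM in wild type and at 46.1, 78.2 and 55.4 CPM in vehicle knockin, which overlapped (log2 0.53, SE 0.24, edgeR adjusted p = 0.41). In pons at 28 weeks both genes had the opposite sign for vehicle knockin against wild type. There the differences in mean log2 CPM were 0.11 for Sox6 and -0.13 for Enpp6, neither called by edgeR.

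In medulla at 18 weeks edgeR called 0 of the 10 genes in each of the 3 comparisons, and DESeq2 0. At an unadjusted p under 0.05 stood 2 for vehicle knockin against wild type and 3 for ASO against vehicle knockin. For ASO knockin against wild type it was 0. Of all 19514 genes tested in medulla, 1121, 905 and 660 stood under that threshold in the same order. In pons edgeR and DESeq2 also called 0 of the 10, with 3, 3 and 0 at an unadjusted p under 0.05. Of all 19806 genes tested in pons, 2414, 1246 and 500 stood under it. Over all genes edgeR called 0% in each of these 6 comparisons, while DESeq2 called 14, 3 and 0 genes in medulla and 2, 20 and 3 genes in pons.

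The cerebellum showed no called difference in the 10 genes. Gpr17 stood at 19.3, 17.0, 14.3 and 19.2 CPM in vehicle knockin and at 18.4, 22.1, 14.4 and 16.5 CPM in ASO knockin, overlapping with the wild type values given above (log2 -0.04 for vehicle knockin against wild type, SE 0.12, adjusted p = 0.95). Pdgfra differed by log2 0.02 (SE 0.11, adjusted p = 0.97) and Enpp6 by 0.06 (SE 0.10, adjusted p = 0.90). EdgeR called 0 of 10 for vehicle knockin against wild type, against 2.71% of all genes. An unadjusted p under 0.05 was reached by 0 of the 10, beside 2911 of all 20350 genes. DESeq2 called 0 of the 10, beside 1158 of all genes. For ASO against vehicle knockin edgeR called 0, against 0.0491% of all genes. There 1 of the 10 reached an unadjusted p under 0.05 (Lhfpl3, log2 -0.28, adjusted p = 0.62), beside 1556 of all genes. DESeq2 called 0 of the 10, beside 218 of all genes. For ASO knockin against wild type edgeR called 0, against 0% of all genes. There 0 of the 10 reached an unadjusted p under 0.05, beside 2235 of all genes. DESeq2 called 0 of the 10, beside 372 of all genes. The library labelled ASO replicate 3 was the lowest of all 12 cerebellum libraries in Tnr (35.9 CPM), Sox6 (7.91 CPM), Cspg4 (5.84 CPM), Vcan (23.8 CPM), Pdgfra (24.1 CPM), Lhfpl3 (27.5 CPM) and Enpp6 (14.2 CPM), and the highest in Neu4 (10.4 CPM).

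In vehicle knockin medulla at 28 weeks 9.28% of all genes rose and 9.99% fell, and the lists of other genes of the lineage are set against those shares. Of 22 other precursor genes 2 rose and 6 fell (median log2 -0.06), of 20 other genes of newly formed oligodendrocytes 2 rose and 6 fell (median -0.06), and of 30 ligands and regulators 1 rose and 8 fell (median -0.03), beside a median of 0.01 over all genes. In each list the share that rose was near or below that over all genes, and the share that fell was above the 9.99% over all genes. Whether these shares differ from those over all genes was not tested. Among precursor genes C1ql1, a secreted synaptic organizer that brainstem neurons also make, fell the most (log2 -1.83, SE 0.25, adjusted p = 3.5e-05). Gpr37l1 differed by log2 -0.46, and Epn2 (-0.24), Sox10 (-0.25), Nxph1 (-0.21) and Olig1 (-0.13) were lower as well. Sox8, which like Sox10 and Olig1 is a transcription factor of the lineage, and Pcdh15 rose by 0.27 and 0.44. Among genes of newly formed cells Zfp488, a zinc finger regulator of differentiation, rose by log2 0.91 (SE 0.09, adjusted p = 4.5e-07), and its vehicle knockin range of 7.33 to 11.6 CPM lay above the wild type range of 4.68 to 5.80 CPM. Itpr2 rose by 0.19. Ugt8a, which makes the myelin lipid galactosylceramide, was lower by a log2 difference of -0.65, and Nkx6-2 by one of -0.45. Prom1 (-0.25), Itgb4 (-0.22), Myrf (-0.20) and Samd4b (-0.11) were lower as well. Among receptors and ligands the log2 difference was -0.67 for Erbb3, -0.33 for Fgfr2, -0.20 for Smad7 and 0.19 for Igf1r, the 1 that rose, and that of Pdgfa, the ligand of Pdgfra, was -0.18 (adjusted p = 0.0078). Pcdh15, Epn2, Sox10, Nxph1, Olig1, Itpr2, Prom1, Itgb4, Myrf, Samd4b, Igf1r and Pdgfa were named after their values were seen.

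On the list of 23 myelin genes, 19 were lower and 1 was higher in vehicle knockin medulla at 28 weeks, with a median of log2 -0.34, and the difference between this list and the precursor genes was not tested. With ASO against vehicle knockin 9 of those 23 rose and 1 fell (median 0.14). Among the other precursor lists at this contrast, 1 of 22 rose (Gpr37l1, log2 0.34) and 1 fell (Sox8, -0.27), 1 of 20 rose (Ugt8a, 0.48) and 1 fell (Zfp488, -0.50), and of 30 ligands and regulators Erbb3 (0.52), Smad7 (0.15) and Fgfr2 (0.26) rose. The fall of Zfp488 with ASO was not called in batch 1 alone or without the 4 libraries low in Hox genes. In ASO knockin against wild type 0 of 22 rose and 2 fell, 1 of 20 rose and 1 fell, and 1 of 30 rose and 1 fell. Over all genes in this tissue 1.69% were called for ASO against vehicle knockin and 3.8% for ASO knockin against wild type.

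In pons at 28 weeks 0 of the 22 other precursor genes rose in vehicle knockin and 4 fell, Epn2 (log2 -0.27), C1ql1 (-0.70), Xylt1 (-0.21) and Gpr37l1 (-0.41). Of the 20 genes of newly formed cells 1 rose, again Zfp488 (log2 1.02, adjusted p = 0.0013), and 3 fell, Prom1 (-0.61), Ugt8a (-0.91) and Nkx6-2 (-0.41). Of the 30 ligands and regulators 0 rose and 8 fell, among them Erbb3 (-0.74), Pdgfb (-0.58) and Pdgfa (-0.15, a call lost in 9 of 18 settings). Of the 23 myelin genes 0 rose and 11 fell, with a median of -0.49. Over all genes in pons 4.14% rose and 5.65% fell. In cerebellum the 3 lists held Gpr37l1 (-0.40), Id2 (-0.60), Id4 (-0.53) and Nog (-0.79) lower and Sox4 (0.62) higher in vehicle knockin. There 2.71% of all genes were called.

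**Figure D5:**
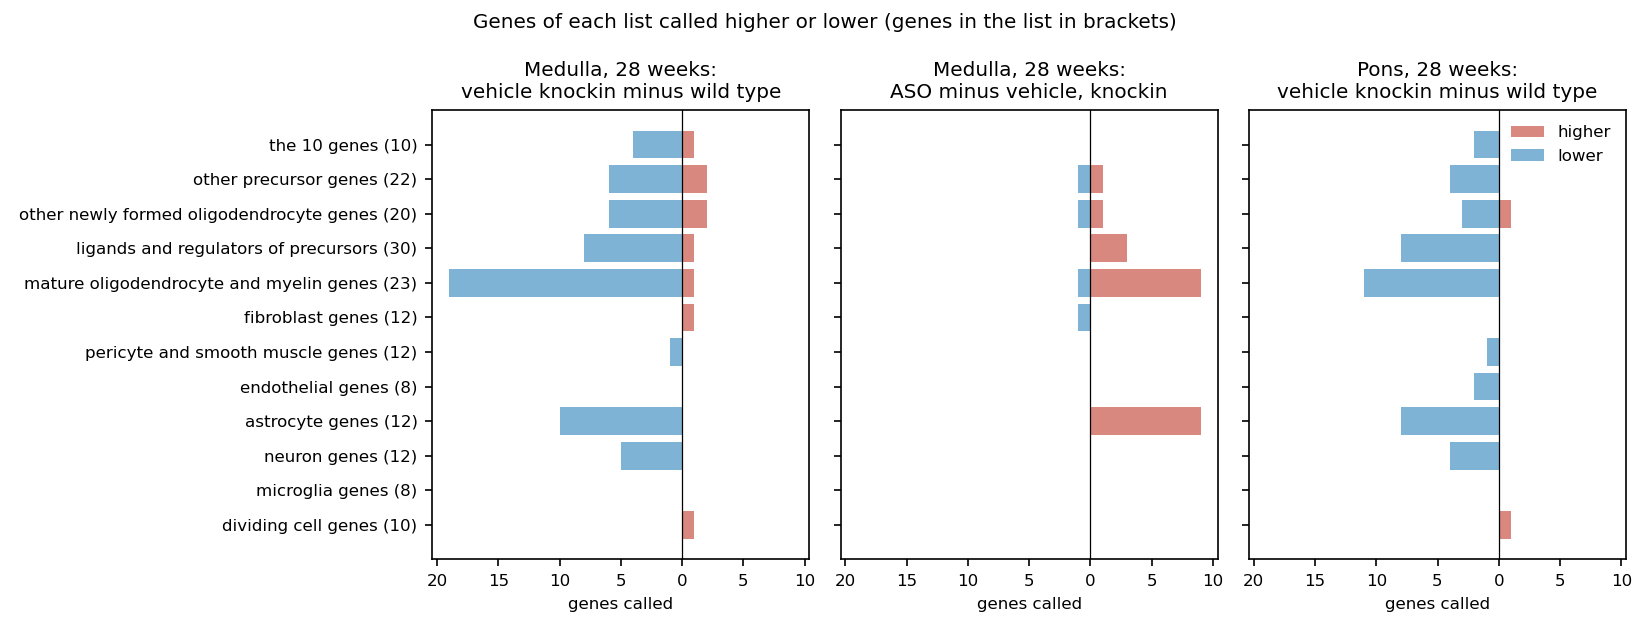
Number of genes called lower (left) and higher (right) in each list, with the size of the list in brackets, for vehicle knockin against wild type in medulla and pons and for ASO against vehicle knockin in medulla, all at 28 weeks. In vehicle knockin medulla 19 of 23 myelin genes and 4 of the 10 precursor genes are lower, and 1 of each list is higher.

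Markers of fibroblasts and pericytes, which express some of the 10 genes, were compared between the same groups. Over all genes at 28 weeks 19.3% were called in vehicle knockin medulla and 9.79% in vehicle knockin pons. In medulla at 28 weeks 1 of 12 fibroblast genes rose in vehicle knockin, Apod, which oligodendrocytes also make and which is on the myelin list too, and 0 fell. The summed level of that list ran from 699.1 to 1051.0 CPM in wild type, from 734.3 to 1270.1 CPM in vehicle knockin and from 617.0 to 971.1 CPM in ASO knockin. Of 12 pericyte and smooth muscle genes 0 rose and 1 fell (Kcnj8, log2 -0.23), with sums from 227.6 to 318.5, from 211.6 to 329.7 and from 212.6 to 288.9 CPM. Astrocyte genes differed more, with 10 of 12 lower and sums from 5529.9 to 7228.0 CPM in wild type against 3591.5 to 4583.2 CPM in vehicle knockin. Of 12 neuron genes 5 fell, and of 8 endothelial and 8 microglial genes 0 were called. Of 10 genes of dividing cells 1 rose (Pcna, log2 0.20). In pons at 28 weeks 0 of the 12 fibroblast genes were called by edgeR, and the sums of that list ran from 738.8 to 796.0 CPM in wild type and from 625.1 to 1074.8 CPM in vehicle knockin. Those of the pericyte list ran from 250 to 320.9 CPM and from 235.8 to 273.3 CPM, which overlapped, with 1 of 12 lower (Rgs5, log2 -0.29). Of 8 endothelial genes 2 were lower (Flt1, log2 -0.30, and Slco1a4, -0.27), and the sums of that list did not overlap, from 256.7 to 277.6 CPM in wild type against 214.6 to 228.7 CPM in vehicle knockin. Of the astrocyte genes 8 of 12 and of the neuron genes 4 of 12 were lower, and 1 of 10 genes of dividing cells was higher (Mcm5, log2 0.34). None of the genes on these lists was at 0 in any library, and their part in the differences of Pdgfra, Vcan, Cspg4 and Tnr was not tested.

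Within groups the 10 genes varied together only in part. After the mean of each group (and batch) was subtracted, 31 of the 45 pairs had a Pearson correlation above 0 over the 65 libraries, with a median of 0.25. The highest was Tnr with Sox6 (0.75), followed by Vcan with Tnr (0.65), and then by Vcan with Lhfpl3, Tnr with Lhfpl3 and Cspg4 with Gpr17 (each 0.55). Pdgfra with Cspg4 had 0.50, and the lowest was Bmp4 with Lhfpl3 (-0.35). The pairs share libraries, among them the cerebellum ASO replicate 3 in which Tnr and Sox6 are both low, so these values are descriptions. Among 13949 genes that averaged a log2 CPM of 1 or more, those whose pattern was most like that of Pdgfra were Ildr2 (0.74), Dusp18 (0.73), Ston1 (0.72), Myo5b (0.70) and Pik3ap1 (0.69). Most like Gpr17 were Pomt1 (0.69), Ppfibp1 (0.64), A230056P14Rik (0.64), Stk11ip (0.59) and Ints3 (0.59).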

How the data were processed

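The authors deposited 1 table of raw read counts, with 49670 gene IDs in its rows and 65 columns; 0 columns were unused. Per the submitters' processing notes, CASAVA 1.8, HISAT2 2.0.2, the GRCm38 build, featureCounts of Subread, R 3.3.3 and DESeq2 1.14.1 were used; per the labels' protocols, libraries were stranded TruSeq libraries of total RNA. Between 70.0% and 78.6% of counts from 1 to 20 were even, so each pair of reads may have been counted as 2. GENCODE vM21 named 49411 IDs, and the other 259 stayed in the tests.

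Separate models were fitted for the 5 tissue and age sets, each with its 3 groups, by edgeR 4.0.16 (limma 3.58.1, R 4.3.3): TMM factors, filterByExpr with a minimum count of 10, robust quasi-likelihood tests and p-values adjusted by Benjamini-Hochberg over every gene in the fit. Batch was a term for medulla at 28 weeks. Interactions joined medulla and pons at 28 weeks, and tissues were compared in wild type libraries. The SE is the log2 difference divided by the root of F. Levels are TMM-scaled CPM over all 65 libraries. Exact two-sided permutation tests compared means of log2(CPM + 0.5), within batches for medulla at 28 weeks; 150 were run, and their p-values are not adjusted. Python 3.11.15, pandas 2.3.3 and scipy 1.17.1 were used. The procedure was tested on simulated counts. Alternatives were DESeq2 1.42.0, RLE factors, no filter, only the 2 groups compared, the replicate number as a block, single libraries or batches, and fits without doubtful libraries. The cut-off that defines libraries low in Hox genes (mean log2 CPM under 1), the use of header numbers as the block between tissues, and the tissue comparisons and interactions without those libraries or with batch 1 alone were chosen after seeing the data.

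The 10 genes, the gene lists and the tests were chosen with earlier results of these data known. The text names the 10 genes in all comparisons, Atxn1, up to 3 called genes of smallest adjusted p per list and comparison, single called members of a list with few calls (5 or fewer), and 5 genes most like Pdgfra and like Gpr17. Same-numbered replicates deviated together in 1 contrast, vehicle knockin against wild type in medulla at 18 weeks (correlations 0.11 to 0.27), where the blocked fit also called 0 of 10.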

Additional observations from a re-analysis of the deposited data

Results flagged for a closer look

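Dixon's test was run on 90 sets of values, each holding 1 gene in 1 group of 4, 7 or 8 libraries. In 7 sets the gap of a library to its nearest neighbour was large for the range of the set. Chance does this in about 1 of 20 independent sets, but these sets share libraries. In medulla at 28 weeks Pdgfra was 63.5 CPM in wild type replicate 5, against 52.4 to 55.5 CPM in the other 7, and this library was also low in Hox genes. Bmp4 was 5.22 CPM in ASO knockin replicate 7 of that tissue, likewise low in Hox genes, against 1.15 to 2.62 CPM. In pons at 28 weeks Neu4 was 15.0 CPM in vehicle knockin replicate 3, against 12.4 to 12.8 CPM.

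In cerebellum the library labelled ASO replicate 3 had 35.9 CPM of Tnr, against 110.9 to 119.0 CPM in the other 3, and 7.91 CPM of Sox6, against 13.4 to 14.4 CPM. In vehicle knockin cerebellum Vcan was 32.7 CPM in replicate 4, against 35.7 to 36.1 CPM, and Neu4 was 6.45 CPM in replicate 3, against 7.03 to 7.13 CPM. Both of these gaps are small in CPM and stand out because the other 3 libraries lay close together.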

How the results depend on the processing

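In vehicle knockin against wild type medulla at 28 weeks, the 5 called genes became 3 with no filter, 2 with only the 2 groups compared, 1 in batch 1 alone, 3 in batch 2 alone, 2 with no batch term, 3 without the library whose Atxn1 goes against its label, 3 without the 4 libraries low in Hox genes, and 2 to 5 on leaving out single libraries. Vcan reversed in batch 2 alone (log2 0.20, adjusted p = 0.026). The cause was not tested. In ASO knockin against wild type, medulla at 28 weeks went from 0 to 1 with DESeq2 and with only the 2 groups, and to 0 to 1 on leaving out single libraries; pons went from 0 to 1 with DESeq2 and with no filter, and to 0 to 1 likewise. In pons at 28 weeks, vehicle knockin against wild type gave 0 to 2 called genes on leaving out single libraries, beside 2. Between wild type medulla and pons at 18 weeks DESeq2 called 1 in place of 0, and leaving out single libraries gave 0 to 1; at 28 weeks the count of 1 became 3 without the wild type library low in Hox genes and 0 to 3 on leaving out single libraries. Between cerebellum and medulla it ran from 8 to 10. Counts of the other comparisons stayed the same under each setting tried.

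With the replicate number as a block, medulla at 28 weeks gave 4 of 10 in vehicle knockin against wild type, with Pdgfra lost (adjusted p = 0.066), and pons gave 1, with Lhfpl3 lost; the block changed no other count within a tissue. Apart from medulla at 18 weeks, same-numbered libraries did not deviate together throughout (correlations -0.47 to 0.36 in medulla and -0.29 to 0.04 in pons at 28 weeks). With the header number as a block in batch 1, 4 of the 10 genes differed between wild type medulla and pons at 28 weeks. They were Tnr, Pdgfra, Gpr17 and Lhfpl3, beside 3119 of all genes called in that fit. No paired analysis was possible for the comparisons with cerebellum because its wild type libraries share fewer than 2 header numbers with those of medulla or pons, and the block on replicate numbers was not run there. Bmp4, with as few as 59 counts, is the gene whose precision depth limits most.

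Over all genes, edgeR's quasi-likelihood test and DESeq2 called 552 and 1158 genes in vehicle knockin cerebellum (3161 with only the 2 groups compared and 303 with the replicate block), 10 and 218 with ASO there, 346 and 610 with ASO in medulla and 19 and 603 with ASO in pons at 28 weeks. For ASO knockin against wild type they called 777 and 1360 in medulla (41 in batch 1 alone, 193 in batch 2 alone, 268 with the replicate block) and 218 and 1020 in pons at 28 weeks, and 168 and 760 between wild type medulla and pons at 18 weeks. Vehicle knockin medulla at 28 weeks went from 3944 called genes to 644 in batch 1 alone and 4333 in batch 2 alone, and ASO against vehicle knockin there from 346 to 0 in batch 1 alone, 222 in batch 2 alone, 162 with only the 2 groups compared and 138 without the libraries low in Hox genes. Without the library whose Atxn1 goes against its label, ASO against vehicle knockin went from 346 to 611 in medulla and from 19 to 299 in pons at 28 weeks.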
